A study of Homo sapiens with 8 samples.

Results

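The tubulin genes that neuronal and dividing cells use most, together with TTC5, the adaptor that recognises new tubulin chains on ribosomes, were followed in IMR32 cells given a translation inhibitor. Members were the rows of the deposited raw count table whose Ensembl identifiers carry the symbols TUBA1A, TUBA1B, TUBA1C, TUBB, TUBB2A, TUBB2B, TUBB3, TUBB4B, TUBB6 and TTC5. All 10 were found among the 58787 genes of the table, and all 10 passed the filter on low counts. IMR32 is an established human neuroblastoma line with amplified MYCN, labelled as wild type, brain and neuroblast. The treated group of 4 libraries received CR31B, a rocaglate that blocks the RNA helicase eIF4A, at its IC50 (the concentration is not in the labels) for 6 h. The control group of 4 libraries received the vehicle, 0.1% DMSO. The design gives 4 biological replicates of 1 cell line, and each was measured by sequencing of polyadenylated RNA. Replicate 1 of both groups was sequenced paired-end and replicates 2, 3 and 4 single-end, so replicate 1 is shown apart for each member. For genes outside the members, replicate 1 values are given for some.

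α- and β-tubulin pair as dimers that build microtubules, and animal cells hold the amount of free dimer steady by destroying tubulin mRNA when dimers accumulate. This autoregulation needs translation: TTC5 binds the first residues of a nascent tubulin as they leave the ribosome, SCAPER joins it, and the CCR4-NOT deadenylase complex then shortens the poly(A) tail of the mRNA being read. Rocaglates clamp eIF4A onto purine-rich RNA and block ribosome scanning, which lowers initiation on many mRNAs.

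The signal that TTC5 reads lies in the first codons, so the opening 30 coding bases are shown for the 9 tubulins, with TUBG1 and TUBE1 as tubulins of other classes. The first 12 bases, in capitals, encode the opening residues. Sequences are from GENCODE release 29 transcripts (GRCh38), 5′ to 3′ on the coding strand.
TUBA1A: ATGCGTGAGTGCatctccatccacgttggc
TUBA1B: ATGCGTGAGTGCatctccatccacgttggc
TUBA1C: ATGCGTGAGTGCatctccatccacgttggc
TUBB: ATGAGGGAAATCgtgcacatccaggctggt
TUBB2A: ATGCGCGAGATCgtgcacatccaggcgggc
TUBB2B: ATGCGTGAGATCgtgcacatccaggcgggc
TUBB3: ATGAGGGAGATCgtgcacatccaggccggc
TUBB4B: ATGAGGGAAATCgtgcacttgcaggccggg
TUBB6: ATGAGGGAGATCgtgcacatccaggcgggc
TUBG1: ATGCCGAGGGAAatcatcaccctacagttg
TUBE1: ATGACCCAGTCGgtggtcgtacaggtcggc
The 3 α members were identical over these 30 bases. The 6 β members had 4 different spellings of the capitals, and every spelling encoded methionine, arginine, glutamate and isoleucine. In the α members cysteine took the place of isoleucine. Over 19702 protein-coding genes, the β opening occurred in 10 genes and the α opening in 9, all of them tubulin genes or, for TUBB8P12, a gene named as a tubulin pseudogene. TUBG1 and TUBE1 carry neither.

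The libraries held 43687828 to 64715535 counts each. A principal component with 51.8% of the variance placed the replicate 1 libraries on the side opposite to their labels, -26.4 for CR31B and 32 for DMSO, against 19 to 29 for CR31B and -29.4 to -25.8 for DMSO in replicates 2 to 4. An exchange of labels within replicate 1, its layout and any other property of that pair cannot be told apart. Adrenergic neuroblastoma markers were present, 9 of 10 at a mean of at least 10 CPM (counts scaled to a common library size with TMM factors), with TH at 2.43 CPM. Of 12 markers of fibroblasts, blood, vessel, epithelial, glial and liver cells, 10 were under 1 CPM. CD68, KRT5 and GFAP were at 0 counts in every library. The summed level of those 12 markers was 35.9 to 49.6 CPM with CR31B and 37.2 to 43 CPM with DMSO in replicates 2 to 4, so the groups overlapped. COL1A1 and PDGFRB made up most of that sum, and of the 5 of these markers tested PDGFRB was called higher (12.4 to 16 CPM, 0.38 on the log2 scale) and PTPRC lower (0.715 to 0.391 CPM, -0.87). The summed level of the 10 adrenergic markers was 4031 to 4384 CPM with CR31B and 3052 to 3103 CPM with DMSO in the same libraries, a gap carried mainly by HAND2 (1328 against 678 CPM) and GATA3 (886 against 259 CPM). Of the 10, 5 were called higher and 3 lower, DBH (-0.98), CHGA (-0.38) and PHOX2A (-0.33), with a median of 0.10. Over all genes tested in replicates 2 to 4, 23.8% were called higher and 17.6% lower. The part of these markers in the tubulin results was not tested.

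Per length of exon, TUBB was the most abundant member at 3657 ± 163 TPM (CPM divided by exon length and rescaled to the same total; mean ± SD, n = 8 over both groups), followed by TUBA1B at 2223 ± 241 TPM and TUBA1A at 1150 ± 158 TPM. TUBB is the common β isotype of dividing cells, and TUBA1A the main α isotype of young neurons. TUBB4B followed at 823 ± 76.5 TPM and TUBB2B at 322 ± 18.5 TPM. TUBB2A at 145 ± 9.56 TPM and TUBB6 at 133 ± 10.4 TPM overlapped in their ranges over libraries, and their order was exchanged when the longest transcript was used as the length. TTC5 stood at 16.8 ± 0.58 TPM. TUBA1C at 2.61 ± 0.438 TPM and TUBB3 at 1.18 ± 0.403 TPM were lowest. A gene on the same strand overlaps TUBB3. Whether the low TUBB3 level depends on how reads of that overlap were counted was not tested. Other neighbours in this order did not overlap in range. All fits below compare counts of the same gene between groups.

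In replicates 2 to 4, the α-tubulin mRNAs TUBA1A and TUBA1B fell to about the same degree with CR31B, by 21.7% and 17.9%. Of the 6 β members only the low TUBB3 passed the test, and TTC5 did not. The p-values measure the spread between these libraries of 1 line. Altogether 3 of 10 members passed an adjusted p of 0.05, all lower, where 41.3% of the 16696 genes tested were called, 17.6% lower and 23.8% higher (edgeR quasi-likelihood test, Benjamini-Hochberg over all genes tested). At an unadjusted p under 0.05 there were 4 of 10 members and 49.2% of genes. This fit did not pair libraries by replicate number. With replicate number as a block, TUBA1C was also called lower, and 51.1% of genes were called. The groups did not overlap in 4 members, all lower with CR31B, where 24.4% of genes were lower without overlap and 27.7% higher. Of all calls, 57.5% were higher with TMM scaling and 40% with upper quartile scaling, which moved the median of all genes to -0.10 and added TUBA1C, TUBB and TUBB2A to the members called lower. The median log2 fold change was -0.08 over the members and -0.01 over all genes tested. In bulk RNA, fewer cells of a kind and less RNA per cell cannot be told apart, and CPM are shares of a library, not amounts per cell.

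TUBA1A (ENSG00000167552, chr12:49184796-49189324, minus strand, GRCh38) had 832, 675 and 791 CPM with CR31B in replicates 2, 3 and 4, and 1030, 948 and 960 CPM with DMSO. Every single-end CR31B library lay under every single-end DMSO library. The means were 766 ± 81.5 and 979 ± 44.4 CPM (SD, n = 3 each), which is -0.35 ± 0.077 (SE) as a log2 fold change (edgeR adjusted p = 0.00426). A lower log2 fold change than that of TUBA1A was found in 14% of genes tested. In replicate 1 the order was opposite, with 982 CPM in the library labelled CR31B and 804 CPM in the library labelled DMSO.

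TUBA1B (ENSG00000123416, chr12:49127782-49131397, minus strand), the broadly expressed α isotype, had 1671, 1403 and 1672 CPM with CR31B and 1962, 1841 and 1983 CPM with DMSO in replicates 2 to 4. The 2 groups did not overlap, and CR31B replicate 3 was the lowest library for both genes. On the log2 scale the difference was -0.28 ± 0.075 (edgeR adjusted p = 0.0115). Of the genes tested, 19.7% had a lower log2 fold change than TUBA1B. In replicate 1 the order was again opposite, 1937 CPM under the CR31B label and 1712 CPM under the DMSO label. TUBA1A kept its call when both libraries of replicate 4 were left out (adjusted p = 0.0382), whereas the adjusted p of TUBA1B was then 0.0707 (edgeR).

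TUBA1C (ENSG00000167553, chr12:49188736-49274603, plus strand), the third α gene of the cluster, was counted only 89 to 195 times per library. Its level was 2.76, 2.16 and 2.31 CPM with CR31B and 3.15, 2.8 and 3.29 CPM with DMSO in replicates 2 to 4, with no overlap. The log2 fold change of -0.35 had an interval of -0.67 to -0.04 (95%) and an adjusted p of 0.0717 (edgeR). The adjusted p was 0.0298 with replicate number as a block, 0.0342 without CR31B replicate 2, 0.0326 with total count scaling and 0.0266 with upper quartile scaling. The replicate 1 libraries had 2.99 CPM (CR31B) and 2.13 CPM (DMSO).

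**Figure D1:**
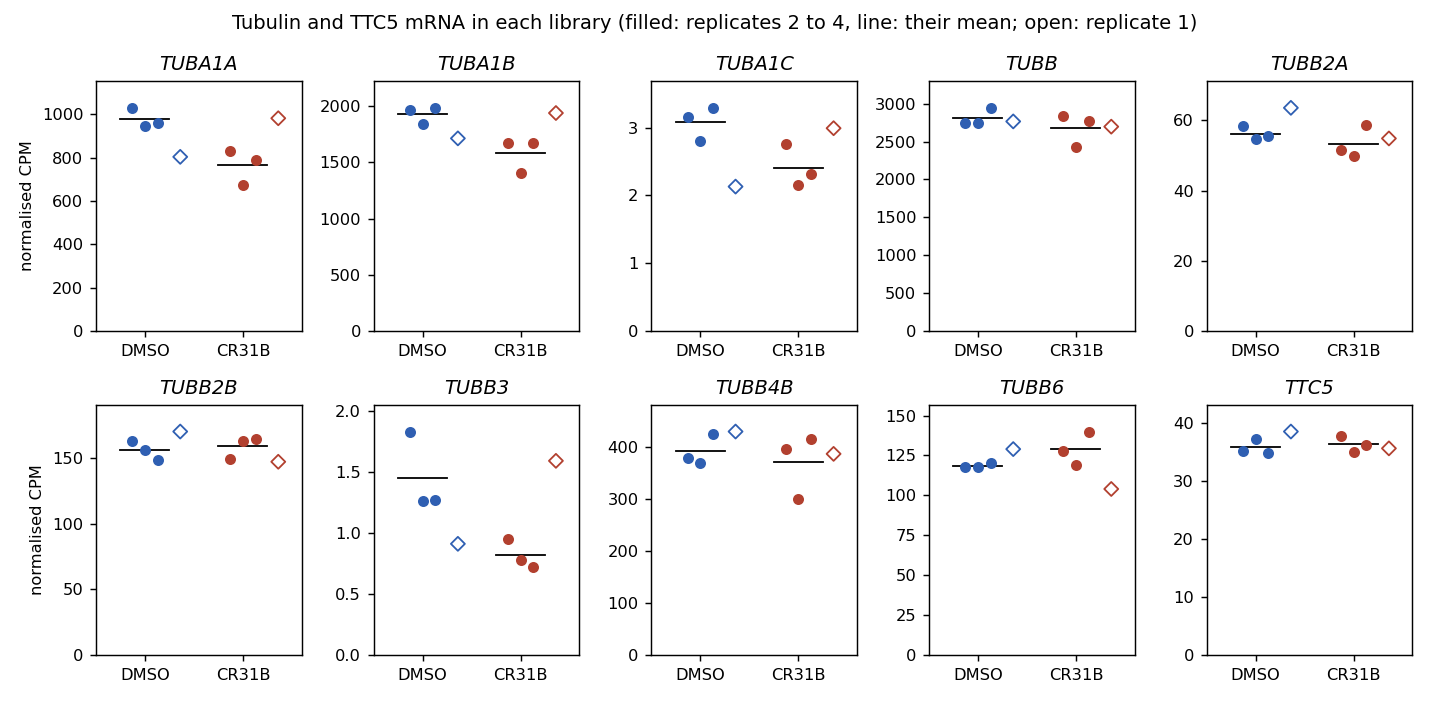
Normalised CPM of the 9 tubulins and TTC5 in each library, each panel from 0; filled points are replicates 2 to 4 in that order, the line is their mean, and open diamonds are replicate 1. TUBA1A, TUBA1B, TUBA1C and TUBB3 have separate groups in replicates 2 to 4 and the opposite order in replicate 1, while TUBB and TTC5 lie close together in all libraries.

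The 3 α coding sequences share 96.3% to 97.3% of their bases, so reads could be split between them. Of the 75-base stretches in their transcripts, 14.1% (TUBA1A), 18.6% (TUBA1B) and 10.3% (TUBA1C) also occur in transcripts of other genes. TUBA1A and TUBA1C overlap on opposite strands over 14.3% of the exonic bases of TUBA1A, and an antisense gene counted 4 to 11 times per library covers 36.6% of those of TUBA1B. The name of the deposited table holds the word reverse, but the strand setting of the counting is not given in the sources used here, so reads of such overlaps cannot be told apart.

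Among the β members, TUBB (ENSG00000196230, chr6:30720201-30725426, plus strand) had 2841, 2429 and 2770 CPM with CR31B and 2739, 2747 and 2944 CPM with DMSO in replicates 2 to 4. These groups overlapped. On the log2 scale the difference was -0.07, with a 95% interval of -0.22 to 0.09 (edgeR adjusted p = 0.482). Replicate 1 gave 2696 CPM (CR31B) and 2765 CPM (DMSO). CR31B replicate 3 was the lowest of all 8 libraries, and without it the value was 0.001. With upper quartile scaling it was -0.16 (edgeR adjusted p = 0.0402).

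TUBB4B (ENSG00000188229, chr9:137241213-137243707, plus strand), a β isotype found in most tissues and in cilia, had 397, 300 and 415 CPM with CR31B and 380, 370 and 426 CPM with DMSO in replicates 2 to 4. Here too only CR31B replicate 3 stood apart, on the low side. The log2 fold change of -0.08 had an interval of -0.32 to 0.16 (95%), and replicate 1 had 387 CPM (CR31B) and 430 CPM (DMSO).

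TUBB2A (ENSG00000137267, chr6:3153669-3157526, minus strand) and TUBB2B (ENSG00000137285, chr6:3224261-3231730, minus strand) are neighbouring β genes of the nervous system with coding sequences that are 98.2% identical. TUBB2A had 51.4, 49.7 and 58.7 CPM with CR31B and 58.4, 54.5 and 55.4 CPM with DMSO in replicates 2 to 4. TUBB2B had 149, 163 and 164 CPM against 163, 156 and 148 CPM in the same libraries. Both pairs of groups overlapped, with 95% intervals of -0.23 to 0.08 for TUBB2A and -0.10 to 0.16 for TUBB2B on the log2 scale. In replicate 1 both were lower in the library labelled CR31B, with TUBB2A at 54.8 against 63.5 CPM and TUBB2B at 147 against 170 CPM. Because 53.2% of the 75-base stretches of TUBB2A and 45.4% of those of TUBB2B occur in other genes, how the authors' counting divided their reads is uncertain.

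TUBB6 (ENSG00000176014, chr18:12307669-12344320, plus strand), a divergent β isotype, shares none of its 75-base stretches with another gene, although AFG3L2, counted 6051 to 8730 times per library, overlaps 20.3% of its exonic bases on the opposite strand. It had 128, 119 and 140 CPM with CR31B and 118, 118 and 120 CPM with DMSO in replicates 2 to 4, so 1 CR31B library lay within the DMSO range. The difference was 0.12 on the log2 scale, with a 95% interval of -0.01 to 0.26 (edgeR adjusted p = 0.135). It became 0.21 with an adjusted p of 0.0237 under offsets for GC content and length, 0.20 with 0.00194 when replicate number was also a block, and 0.18 with 0.0228 without CR31B replicate 3. In replicate 1 the values were 104 CPM (CR31B) and 129 CPM (DMSO).

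TUBB3 (ENSG00000258947, chr16:89921392-89938761, plus strand), the β isotype used as a marker of neurons, was counted only 32 to 113 times per library. In replicates 2 to 4 it had 0.953, 0.777 and 0.717 CPM with CR31B and 1.83, 1.26 and 1.27 CPM with DMSO, with no overlap. It fell by 43.6%, or -0.83 ± 0.21 on the log2 scale (edgeR adjusted p = 0.0105, and 0.0626 when both libraries of replicate 4 were left out). Of the genes tested, 1.78% had a lower value. Replicate 1 again had the opposite order, 1.59 CPM (CR31B) and 0.91 CPM (DMSO). A gene annotated across TUBB3 on the same strand (ENSG00000198211) covers 35.8% of its exonic bases and was listed at 0 in every library. That share is of all 4430 exonic bases, whereas the longest TUBB3 transcript has 1978 bases. The 2 genes share 1512 stretches of 75 bases, so the overlap within a single TUBB3 transcript may be larger. Whether the low TUBB3 counts, and the fall in them, depend on how reads of that overlap were treated was not tested.

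TTC5 (ENSG00000136319, chr14:20256558-20305994, minus strand) had 37.7, 35 and 36.2 CPM with CR31B and 35.2, 37.3 and 34.8 CPM with DMSO in replicates 2 to 4. The groups overlapped. The log2 fold change of 0.02 had a 95% interval of -0.11 to 0.15 and an adjusted p of 0.78 (edgeR), and its sign changed with upper quartile scaling, total count scaling and GC and length offsets. The replicate 1 libraries had 35.6 CPM (CR31B) and 38.5 CPM (DMSO). TTC5 had the smallest spread relative to its level among the members.

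**Figure D2:**
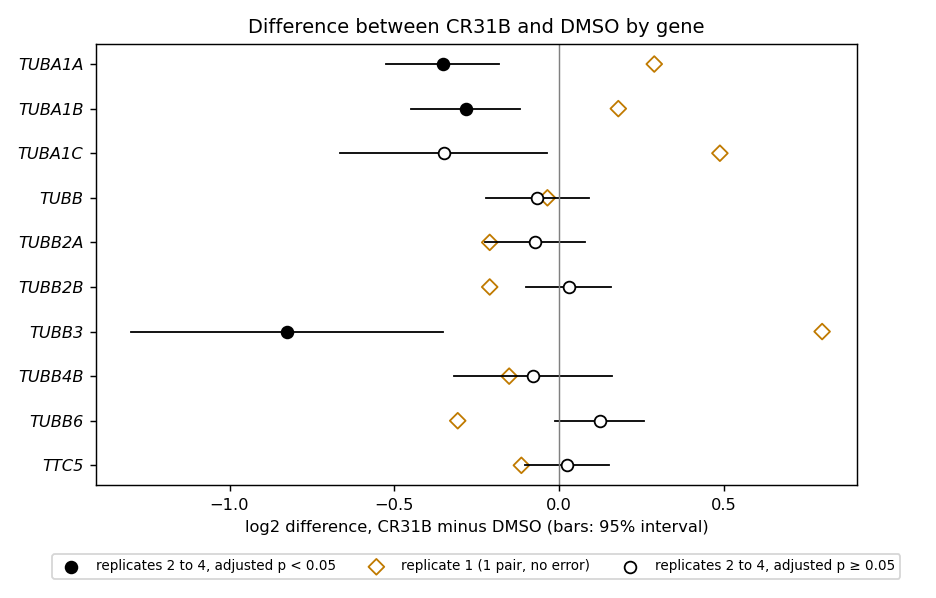
Log2 difference between CR31B and DMSO for each member; circles are the edgeR estimates of replicates 2 to 4 with 95% intervals (filled where the adjusted p is under 0.05), and diamonds are the single difference of replicate 1. TUBA1A, TUBA1B and TUBB3 lie left of 0 in replicates 2 to 4 and right of 0 in replicate 1.

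Summed per length, the 9 tubulins took 7358 to 8311 TPM in the single-end CR31B libraries and 8780 to 9138 TPM in the single-end DMSO libraries. The α sum was 2992 ± 224 TPM with CR31B and 3726 ± 90.7 TPM with DMSO (SD, n = 3 each), so the CR31B mean was 80.3% of the DMSO mean. The β sum was 4970 ± 302 and 5208 ± 170 TPM, 95.4% of the DMSO mean. The β sums overlapped between the groups and the α sums did not. TUBB3 entered the β sum as counted, with the limit of its overlap given above.

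The ratio of summed α to summed β TPM was 0.612, 0.592 and 0.601 with CR31B and 0.751, 0.705 and 0.693 with DMSO in replicates 2, 3 and 4. The groups did not overlap, and CR31B replicate 3, the lowest single-end CR31B library for most tubulins, lay with the other CR31B libraries in this ratio, which does not depend on library scaling. The replicate 1 libraries had 0.748 (labelled CR31B) and 0.609 (labelled DMSO), each within the single-end range of the other label. With longest transcripts as lengths the means were 0.701 ± 0.0136 with CR31B and 0.84 ± 0.039 with DMSO (SD, n = 3 each). The shares of single genes in the tubulin sum moved with it: TUBA1B made up 24.9% ± 0.208 with CR31B and 27.3% ± 0.404 with DMSO, and TUBB 45% ± 0.611 and 42.2% ± 0.964 (SD, n = 3 each). These shares are a description, since they sum to a fixed total.

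**Figure D3:**
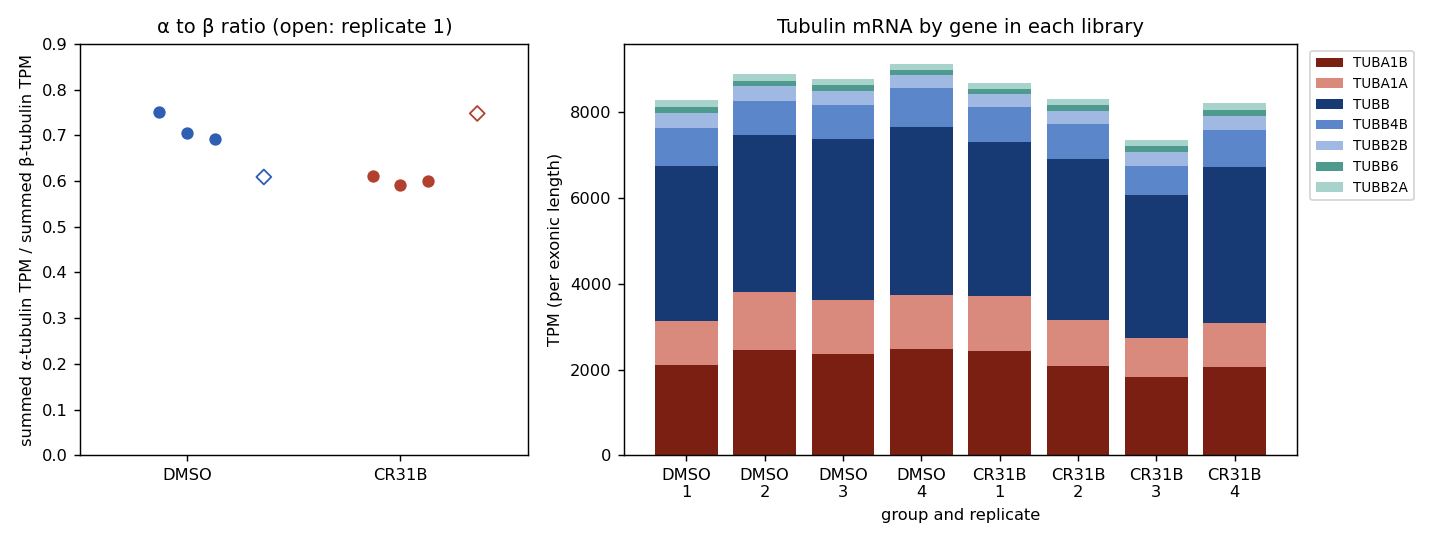
Left, ratio of summed α-tubulin to summed β-tubulin TPM in each library (filled: replicates 2 to 4; open: replicate 1). Right, TPM of the 7 most abundant tubulins stacked by library, with TUBA1C and TUBB3 too low to draw; the α segments at the base are shorter in CR31B replicates 2 to 4 and in the library labelled DMSO replicate 1.

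With all 8 libraries fitted as labelled and layout as a term, 0 of 10 members passed the test, and 0% of 16518 genes tested were called (edgeR quasi-likelihood test, Benjamini-Hochberg). At an unadjusted p under 0.05 there were 0 members, the smallest being 0.163, and 1.24% of all genes. DESeq2 and limma voom also called 0 members and 0 genes. In this fit TUBA1A had a log2 fold change of -0.20 ± 0.13, TUBA1B -0.17 ± 0.11, TUBB3 -0.43 ± 0.31 and TUBB -0.06 ± 0.084. Without either library of replicate 1, or without both, TUBA1A, TUBA1B and TUBB3 were called together with 41.1% to 41.6% of all genes tested, and leaving out any other library gave 0 members and 0 genes.

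The difference between layouts was tested as an interaction, in which the paired-end side has 1 library per group and the spread comes from the single-end libraries. It passed in 5 of 10 members, where 42.5% of genes tested passed (edgeR, Benjamini-Hochberg). Of these, TUBA1A had an adjusted p of 0.00712, TUBA1B of 0.0289, TUBA1C of 0.0395 and TUBB3 of 0.0112, each higher in the library labelled CR31B in replicate 1 and lower with CR31B in replicates 2 to 4. TUBB6 (0.0164) had the reverse order. The sign in replicate 1 was opposite to that in replicates 2 to 4 in 7 of 10 members and in 84.3% of 16502 genes. TUBB, TUBB2A and TUBB4B kept their sign, each with a value under 0 whose interval in replicates 2 to 4 covered 0.

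The 14 other tubulin genes were mostly silent: 9 did not pass the filter on low counts, each with a mean under 1 CPM. Of the 5 tested, 1 rose and 0 fell with CR31B in replicates 2 to 4, where 23.8% of all genes tested were called higher and 17.6% lower. TUBE1, the ε-tubulin of centrioles, had 19.9, 19.6 and 21.5 CPM with CR31B and 14.6, 13.1 and 14.5 CPM with DMSO, or 0.53 ± 0.076 on the log2 scale (edgeR adjusted p = 0.000303). In replicate 1 it was lower under the CR31B label, at 17.6 CPM, than under the DMSO label, at 24 CPM. TUBG1, the γ-tubulin of microtubule nucleation, had a mean of 208 CPM and a log2 fold change of -0.01, and TUBG2, TUBD1 and TUBA4A had -0.09, -0.07 and 0.06. With GC and length offsets and the block, TUBG1 had 0.12 (adjusted p = 0.024) and TUBD1 -0.14 (adjusted p = 0.0299, edgeR).

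Downstream of TTC5, the scaffold of the deadenylase complex rose 2.04-fold while SCAPER did not pass the test. Of 14 genes for autoregulation and deadenylation, 7 rose, 1 fell and 6 did not pass in replicates 2 to 4, with a list median of 0.19 on the log2 scale. The counts and medians of all lists can be set beside the 23.8% of genes called higher, the 17.6% called lower and the median of -0.01 over all genes. CNOT1, the scaffold on which the CCR4-NOT complex assembles, had 635, 644 and 673 CPM with CR31B and 333, 301 and 325 CPM with DMSO. The groups did not overlap, and the 2.04-fold difference is 1.03 ± 0.056 on the log2 scale (edgeR adjusted p = 8.7e-07). The libraries of replicate 1 had 322 CPM (CR31B) and 637 CPM (DMSO). CNOT10, which joins CNOT11 in a module of the complex, rose by 0.59 and CNOT4, a ubiquitin ligase linked to the complex, by 0.45 on the log2 scale. In replicate 1 CNOT10 and CNOT4 had the opposite sign, -0.53 and -0.56. Of the 4 catalytic deadenylase subunits in the list, CNOT6L rose by 0.32 and CNOT8 by 0.23, while CNOT6 had -0.01 and CNOT7 -0.16 and did not pass. CNOT7 was lower with CR31B without overlap of the groups, at an adjusted p of 0.0507 (edgeR). CNOT3 and CNOT11 rose by 0.30 and 0.40. SCAPER, the link between TTC5 and CCR4-NOT, had 38.5 ± 2.99 CPM with CR31B and 34.8 ± 3.09 CPM with DMSO (SD, n = 3 each), with an adjusted p of 0.161 (edgeR). NACA, a subunit of the complex that meets nascent chains at the ribosome exit, was the gene called lower (-0.15, edgeR adjusted p = 0.0378). The number of lower calls in this list was 0 to 2 when libraries or pairs were left out, with 0 without CR31B replicate 3, CR31B replicate 4, DMSO replicate 2, DMSO replicate 4, or both libraries of replicate 2 or of replicate 4. Over all alternatives tried, 12 called more genes of this list lower, 6 called fewer and 1 called the same number.

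Among 16 genes of the folding machinery that receives new tubulin, the chaperonin TRiC, the prefoldin complex and the phosducin-like helpers, 7 fell, 1 rose and 8 did not pass in replicates 2 to 4, with a median of -0.17. TCP1, which encodes the first TRiC subunit, had 412 ± 37.4 CPM with CR31B and 549 ± 28.6 CPM with DMSO (SD, n = 3 each), or -0.42 ± 0.072 on the log2 scale (edgeR adjusted p = 0.00107). CCT3 (-0.36) and CCT5 (-0.30) of TRiC and the prefoldin subunits VBP1 (-0.36), PFDN4 (-0.36), PFDN5 (-0.30) and PFDN2 (-0.22) were the others that fell. CCT7 had 0.16 with an adjusted p of 0.0331 (edgeR). In replicate 1 each of these called genes had the opposite sign, such as 0.33 for TCP1, 0.29 for VBP1 and -0.24 for CCT7. No gene of the list was called higher in 10 of 19 alternatives, namely RLE, upper quartile and total count scaling and 7 of the 9 fits that left out a library or pair. Upper quartile and total count scaling called 12 genes lower.

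The cofactors that assemble α- and β-tubulin into dimers were mixed. Of 7, 2 fell, 1 rose and 4 did not pass, with a median of -0.24. TBCA, which holds β-tubulin, fell by 0.38 and TBCB, which holds α-tubulin, by 0.24 on the log2 scale. TBCC, which triggers release of the finished dimer, had 47.7 ± 0.92 CPM with CR31B and 32.2 ± 0.564 CPM with DMSO (SD, n = 3 each), a rise of 0.57 ± 0.052 on the log2 scale (edgeR adjusted p = 1.6e-05). TBCB had -0.11 with an adjusted p of 0.101 under GC and length offsets (edgeR). The differences in replicate 1 were 0.297 for TBCA, 0.195 for TBCB and -0.792 for TBCC, opposite to those of replicates 2 to 4.

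Of 21 genes for enzymes that modify tubulin, 18 were tested, 2 rose, 5 fell and 11 did not pass, with a median of -0.14. The 5 that fell include VASH1 (-0.85 ± 0.077) and VASH2 (-0.46 ± 0.079), carboxypeptidases that remove the last tyrosine of α-tubulin, and their partner SVBP (-0.32). The others were the ligase TTL that restores the tyrosine (-0.33) and the acetyltransferase ATAT1 (-0.43). VASH1 had 12.3 ± 0.259 CPM with CR31B and 22.2 ± 1.71 CPM with DMSO (SD, n = 3 each), with an adjusted p of 1.59e-05 (edgeR). TTLL4 (0.48) and TTLL7 (0.34), which add glutamate chains, rose. All called genes of this list had the opposite sign in replicate 1, such as 0.81 for VASH1 and -0.54 for TTLL4.

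Of 23 stathmins and microtubule-associated proteins, 6 rose, 4 fell and 13 did not pass, with a median of 0.07, and with upper quartile scaling 3 were called higher and 9 lower. Leaving out libraries or pairs gave 1 to 6 higher and 2 to 4 lower, the lowest counts being those without both libraries of replicate 4. The stathmins bind free dimers or destabilise microtubules. STMN2 fell by 0.81 ± 0.079 and STMN1 by 0.34, from 1592 ± 107 CPM with DMSO to 1255 ± 132 CPM with CR31B (SD, n = 3 each). STMN4, at a mean of only 2.41 CPM, rose by 0.78 with overlapping groups (edgeR adjusted p = 0.0414). STMN3 had -0.11 and did not pass, so the stathmins were mixed. MAPT, which encodes the axonal protein tau, fell by 0.58 ± 0.12. CKAP5, a microtubule polymerase, rose by 0.54 ± 0.09 and MAP1B by 0.30. Adjusted p-values of STMN2, STMN1, MAPT, CKAP5 and MAP1B were between 2.66e-05 and 0.00694 (edgeR). In replicate 1 CKAP5 and STMN2 had differences of -0.58 and 1.03, opposite to those values.

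**Figure D4:**
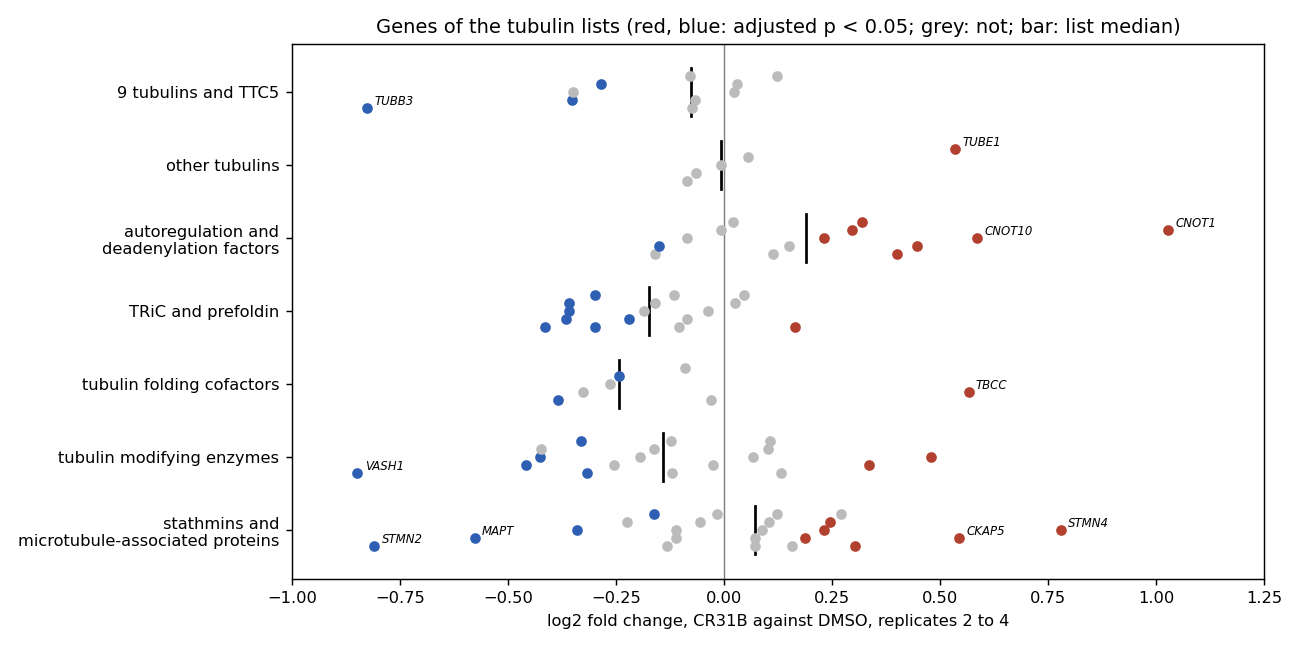
Log2 fold change in replicates 2 to 4 for each tested gene of the 7 lists (red and blue: adjusted p under 0.05, higher and lower; grey: not passed; bars: list medians), with called genes beyond 0.5 in either direction named. Deadenylation genes spread to the right up to CNOT1 at 1.03, and the genes of TRiC and prefoldin lie mostly left of 0.

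The course of TUBA1B and TUBB over the 8 libraries was compared with that of 10797 other genes of at least 5 CPM by the root mean square difference of centred log2 CPM. Closest to TUBA1B outside the tubulins were PSMB2 (0.0229), VDAC1 (0.0237) and NDUFAB1 (0.0245), a proteasome subunit, a mitochondrial channel and a carrier protein of mitochondrial fatty acid synthesis. Their log2 fold changes in replicates 2 to 4 were -0.25, -0.29 and -0.28. Its nearest member was TUBA1A, at 0.055 and rank 190. Closest to TUBB were KPNA3 (0.0225), MRTO4 (0.0231) and RPL36AL (0.0234), with -0.04, -0.08 and -0.07. The nearest member to TUBB was TTC5, at 0.0799 and rank 1171. In this measure many other genes ran closer to TUBA1B and to TUBB than any other tubulin among the members did. Distances to the tubulins outside the members were not listed.

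The members, called or not, varied in the length and the longest purine run of the 5′ untranslated region. In the annotated transcripts the length was 345 bases in TUBA1A, 95 in TUBA1B and 123 in TUBB3, against a median of 186 over 18827 genes. The longest run of A or G there was 13, 5 and 6 bases, against a median of 8. Of the members that did not pass, TUBB had 306 bases and a longest run of 12, and TUBA1C 275 and 6. TUBB2A had 63 and 5, TUBB2B 192 and 10, TUBB4B 148 and 8, TUBB6 234 and 6, and TTC5 57 and 9. These values describe annotated sequence and were not tested against the counts.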

How the data were processed

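The authors deposited 1 table of raw read counts per Ensembl gene for 8 libraries, whole numbers with 1 column per library, per the file header. The submitters' processing notes name FastQC 0.11.7, STAR 2.7.2b, edgeR 3.36.0, limma 3.50.3 and GRCh38, without roles. Counting tool, strand setting and gene annotation are not given in the sources used here. Per the labels' protocols, 250 ng of RNA, 15 PCR cycles and 75 sequencing cycles were used, and whether PCR duplicates were removed is not given in the sources used here. Names came from GENCODE release 29, which holds 58515 of 58787 identifiers. One column name (CR31B replicate 4) starts with MR32 in place of IMR32.

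The test was the quasi-likelihood F test of edgeR 4.0.16 under R 4.3.3 (filterByExpr, TMM, glmQLFit, glmQLFTest, two-sided, Benjamini-Hochberg over all tested genes, threshold 0.05). The 8-library fit had layout as a term; replicates 2 to 4 were fitted alone as the value within the single-end batch. SE is the log2 fold change over the root of the F statistic. CPM use the 8-library TMM factors, log2 CPM a prior count of 1, and TPM the union of exons. The scripts were tested on simulated counts in which 200 genes were changed. In replicates 2 to 4 they recovered 90.9% of log2 changes of 1 and 47% of log2 changes of 0.35, with 6 false calls. A gene that did not pass can thus have a change of the smaller size. In the data many more genes were called, so these shares may differ there. Alternatives were RLE, upper quartile and total count scaling, 2 filters, DESeq2 1.42.0, limma voom 3.58.1, a replicate block, GC and length offsets, both together, no layout term, and leaving out libraries or pairs.

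Members and lists were chosen with earlier results of these data known. The named genes were all members, other tubulins of at least 1 CPM, up to 3 called genes per list with the largest change and at least 5 CPM, and the 3 nearest genes to TUBA1B and TUBB; further list genes were named after their values were seen. Library pairs of a group differed by a mean chi-square per gene of at least 7.28, so no library repeats the counts of another in its group. This cannot show separate cultures, and each library was taken as a replicate by its label. Deviations from group means correlated within replicate numbers (r = 0.206 for replicate 2, 0.384 for replicate 3 and 0.157 for replicate 4), which pairs the single-end libraries by number. The main fits did not use this pairing, and the replicate block was run as an alternative.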

Additional observations from a re-analysis of the deposited data

Results flagged for a closer look

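The difference between CR31B and DMSO differed between the paired-end pair and the single-end pairs in 5 of 10 members, where 42.5% of all genes passed, by an interaction of treatment with layout (edgeR quasi-likelihood test, Benjamini-Hochberg). The adjusted p was 0.00712 for TUBA1A, 0.0289 for TUBA1B, 0.0395 for TUBA1C, 0.0112 for TUBB3 and 0.0164 for TUBB6. Layout, an exchange of labels within replicate 1 and any other property of that pair cannot be told apart.

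Single libraries far from the other 3 of their group were found in 2 of 24 groups examined (10 members, the tubulin sum and the α to β ratio, in each treatment), where chance gives about 1.2 (1 in 20). For TUBB in the DMSO group, replicate 4 lay apart, with a gap of 0.875 of the group's range. For the α to β ratio in the CR31B group, replicate 1 lay apart, with a gap of 0.872 of the range.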

How the results depend on the processing

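With all 8 libraries, 0 members were called under each scaling, filter, tool and model tried, and with replicate number as a block. Over the fits leaving out libraries or pairs the count was 0 to 3. It was above 0 only without a library of replicate 1, where 41.1% to 41.6% of all genes were called. Those fits repeat that of replicates 2 to 4, because the layout term takes up a lone library of replicate 1. In replicates 2 to 4 the 3 called members became 6 with upper quartile scaling (TUBA1C, TUBB and TUBB2A added) and 5 with the replicate block and GC and length offsets (TUBA1C and TUBB6 added), where 45% and 50.5% of all genes were called, against 41.3%. Leaving out libraries or pairs gave 1 to 4. The replicate block alone called 4 members, TUBA1C added, and 51.1% of genes, and changed no other member's call. Upper quartile scaling moved the median of all genes to -0.10, so members moved with it; under it 40% of all calls were higher, with total counts 43.1%, and with TMM 57.5%, with GC and length offsets 51.2% and with the block added 49.2%. Without replicate 4, 3981 genes were called in place of 6901. TUBA1A, TUBA1B and TUBB3 kept their sign in every setting run, with no value for TUBB3 under the stricter filter in 8 libraries.

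Signs changed for values whose 95% intervals covered 0. In 8 libraries TUBB6 was -0.028 with upper quartile and -0.022 with total count scaling, and TUBB2B 0.016 with GC and length offsets and 0.015 with the block added. In replicates 2 to 4, upper quartile and total count scaling gave -0.067 and -0.049 for TUBB2B, -0.073 and -0.056 for TTC5, and -0.042 and -0.025 for TUBA4A. The stricter filter gave -0.006 for TTC5. GC and length offsets, without and with the replicate block, gave 0.055 and 0.05 for TUBB2A, 0.018 and 0.007 for TUBB4B, -0.13 and -0.131 for TTC5, 0.121 and 0.119 for TUBG1, 0.025 and 0.024 for TUBG2, 0.004 and 0.002 for MRTO4, and 0.006 and 0.004 for RPL36AL. Leaving out libraries or pairs in 8 libraries gave TUBB2B -0.085 to 0.03, TUBB6 -0.05 to 0.123 and TTC5 -0.05 to 0.024. In replicates 2 to 4 it gave TUBB -0.129 to 0.001, TUBB2B -0.029 to 0.109, TUBB4B -0.167 to 0.053 and TTC5 -0.016 to 0.069. The same fits gave TUBA4A -0.081 to 0.23, TUBG1 -0.044 to 0.05 and KPNA3 -0.089 to 0.024. The cause of these changes was not tested. TUBA1C and TUBB3 had under 200 counts per library.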
